A study of Mus musculus with 11 samples.

Results

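Resting T cells of cereblon knockout and wild-type mice were compared with each other, using the 3 arrays labelled as naive knockout T cells and the 3 labelled as naive wild-type T cells, 6 of the 11 arrays of the series. The wild-type animals are C57BL6 mice and the knockout animals are labelled crbn-/-; all were females of 3 to 4 months, and their T cells were taken from the spleen by negative magnetic bead selection, which removes other cells and leaves the T cells unbound. The labels do not say which C57BL6 substrain was used, on which background the deletion was made, which part of Crbn it removes, or that the controls were littermates. The remaining 5 arrays (3 knockout and 2 wild-type) hold cells stimulated for 12 h with 5 µg/ml plate-bound anti-CD3 and 1 µg/ml soluble anti-CD28, here called activated. Each array is a one-colour Affymetrix array of mouse probe sets, and each value is a log2 RMA level, that is, a background-corrected, quantile-normalized summary of the probes of 1 probe set. Arrays of a group are labelled as biological replicates, and p-values measure the spread between them.

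Cereblon is the substrate receptor of a cullin-RING ubiquitin ligase built on CUL4 and DDB1, and it decides which proteins the ligase marks for degradation. Thalidomide and its relatives bind cereblon and redirect the ligase to new substrates such as the transcription factors Ikaros and Aiolos. In T cells cereblon has been described as a brake on activation, which includes the control of a potassium channel. Since the ligase acts on proteins, an absent substrate receptor need not leave a mark on the mRNA of its substrates.

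Of 45101 probe sets in the table, 34958 carried exactly 1 gene symbol and were tested, for 18194 genes. In limma, with Benjamini-Hochberg adjustment over these probe sets, 55 (0.157%) passed an adjusted p of 0.05 and are referred to as called: 25 were higher in knockout cells (0.0715%) and 30 lower (0.0858%). They stand for 45 genes, 23 higher and 22 lower, of which 8 were called by more than 1 probe set. A change of at least 2-fold was seen in 16 called probe sets of 12 genes, 12 of them lower. The median absolute difference of the called probe sets was 0.67 log2 and the smallest 0.40, while the median standard error over all probe sets was 0.091. All 55 had their knockout arrays entirely above or below the wild-type arrays, as had 20.0% of all probe sets, and an unadjusted p under 0.05 was reached by 14.6%. The number of calls depended on single arrays: it was 21 without wild-type naive replicate 2, 22 without knockout naive replicate 3, 23 without either wild-type naive replicate 1 or knockout naive replicate 2, and 521 without wild-type naive replicate 3. Fitting the 6 naive arrays alone gave 14 calls, and array quality weights gave 702. The split by direction moved too: of the 521 calls, 120 were higher and 401 lower. With the replicate number as a block, 82 were higher and 262 lower on all arrays (0.984% called), and 89 and 443 on the naive arrays alone (1.52%).

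The arrays within each group were not alike, and a contrast of markers has to be kept beside every result. The leading principal component of the 6 naive arrays carried 57.1% of their variance, with scores of 37.2, 12.5 and -1.2 in wild-type replicates 1 to 3 and -4.6, -14.9 and -29 in knockout replicates 1 to 3. Marker genes of erythroid cells, which bead selection should remove, spanned a wide range: their mean level was 8.68, 7.94 and 7.26 log2 in the wild-type and 7.51, 6.67 and 6.43 in the knockout arrays. Wild-type replicate 3 lay below knockout replicate 1, so the groups overlapped. In both genotypes the mean fell from replicate 1 to replicate 3, and each knockout array lay below the wild-type array of its number. The labels do not say that equal numbers mark pairs. When this mean entered the fit as a covariate, 12 of the 55 probe sets remained called. In bulk samples, fewer cells of a type and less RNA per cell cannot be told apart.

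Crbn itself was lower in every knockout array by all 3 of its probe sets. Probe set 1423095_s_at read 10.06, 10.21 and 10.09 in the wild-type arrays against 8.97, 9.07 and 8.91 in those of knockout cells, a difference of -1.13 (SE 0.086, limma adjusted p = 7.92e-05). Probe set 1423094_at read 9.22, 9.05 and 9.13 against 8.13, 8.11 and 7.89, and 1455734_at read 8.23, 8.25 and 8.11 against 7.51, 7.54 and 7.27. The signal left in knockout cells was 45.6%, 47.0% and 59.1% of the wild-type level by these 3 probe sets. How the probes lie relative to the deletion is not known here, so the remaining signal does not measure how much intact transcript is left. The 3 probe sets differed in the share they retained, and none overlapped between the groups.

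With Crbn, 12 genes were called whichever of the 6 naive arrays was left out, by 18 probe sets. Of these, 9 were lower in knockout cells, Crbn, Rab4a, Igf2bp3, Apol8, Nnt, Ctse, Slc35g1, Rnf43 and Snhg14, and 3 were higher, Rell1, Slc6a19 and Neurl3. The median absolute difference of the 18 probe sets was 1.05 log2. With the erythroid covariate 7 of the 12 genes were still called by at least 1 of these probe sets. Limma no longer called Igf2bp3 (adjusted p = 0.0567 on its lead probe set), Slc6a19 (0.0673), Rnf43 (0.088), Neurl3 (0.29) and Snhg14 (0.304). With that covariate their differences, in the same order, were -1.41, 0.89, -0.68, 0.58 and -0.55. Without it they were -1.57, 1.00, -0.64, 0.65 and -0.70. Their standard errors were larger with the covariate, such as 0.114 against 0.079 for Rnf43 and 0.115 against 0.081 for Neurl3. Rnf43 lies outside the rule by which genes were otherwise named and was included after its values were seen.

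**Figure D1:**
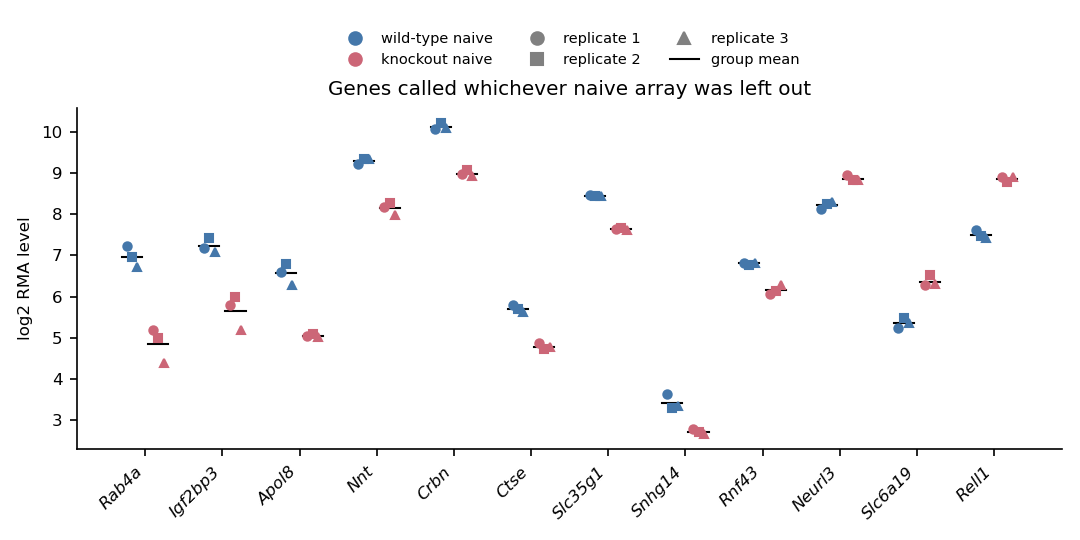
Log2 RMA level (vertical axis) in the 3 wild-type and 3 knockout naive arrays for the 12 genes called whichever naive array was left out, each by its called probe set of largest difference. Points are arrays, marker shape is the replicate number and lines are group means. In all 12 genes the 2 groups stand apart, from Rab4a (-2.12) at the left to Rell1 (1.35) at the right.

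The largest called fall was that of Rab4a, the gene of a small GTPase that returns endocytosed receptors, among them the T cell receptor, to the cell surface. Probe set 1418341_at read 7.24, 6.96 and 6.73 in wild-type against 5.19, 4.99 and 4.39 in knockout arrays, and 1449048_s_at read 9.08, 8.81 and 8.60 against 7.15, 7.10 and 6.78. The differences were -2.12 (SE 0.19) and -1.82 (SE 0.13), which left 23.1% and 28.3% of the wild-type level, with limma adjusted p-values of 2.5e-04 and 7.23e-05. Both probe sets of the gene were called, and neither of its groups overlapped. With the erythroid covariate the differences were -1.59 and -1.48, both still called.

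Nnt, whose product is the mitochondrial nicotinamide nucleotide transhydrogenase that makes NADPH, was lower by 2 of its 3 probe sets. Probe set 1456573_x_at read 9.21, 9.34 and 9.34 in wild-type against 8.18, 8.27 and 7.98 in knockout arrays, a difference of -1.15 (SE 0.10), and 1416105_at fell by 1.01. The other probe set, 1432608_at, read 4.19 to 4.65 in wild-type and 4.47 to 4.76 in knockout arrays, with a difference of 0.17 (limma adjusted p = 0.528). As background, Nnt carries a deletion in C57BL/6J mice that C57BL/6N mice lack, and Rab4a and Nnt are both in a list of 12 genes reported to differ between C57BL/6 substrains. Of the 10 measured members of that list, each by its brightest probe set, these 2 were called, beside 0.148% of all genes. The other 8 were not, among them Wdfy1 (-0.20), Ide (-0.20), Nlrp12 (0.24), Cyfip2 (-0.06) and Crb1 (0.08). At an unadjusted p under 0.05 in limma there were 3 of the 10, beside 14.0% of all genes. Arrays did not overlap for 5 of the 10, with Rab4a, Nnt and Ide among them, beside 20.4% of all genes. The list was written with earlier results of these data known, and whether the animals differ in substrain was not tested.

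The RNA-binding protein gene Igf2bp3, which is mostly active in fetal tissue, was lower by all 6 of its probe sets, 3 of them called. Probe set 1422610_s_at read 7.18, 7.43 and 7.09 against 5.80, 5.999 and 5.19, a difference of -1.57 (SE 0.16, limma adjusted p = 8.76e-04). The other called ones fell by 0.78 and 0.66, and the 3 that were not called had differences of -0.41, -0.60 and -0.84 with limma adjusted p-values of 0.221, 0.0879 and 0.156. With the erythroid covariate 1422610_s_at had a difference of -1.41 and an adjusted p of 0.0567 in limma.

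Apol8, a member of the apolipoprotein L family, read 6.60, 6.80 and 6.30 in wild-type against 5.04, 5.09 and 5.03 in knockout arrays, a difference of -1.51 (SE 0.14) that left 35.1% of the wild-type level. Slc35g1, a gene of the solute carrier family 35, was the most even of these genes: it read 8.47, 8.43 and 8.44 against 7.63, 7.67 and 7.61, with a difference of -0.81 (SE 0.068). Ctse, the gene of the intracellular aspartic protease cathepsin E, fell by 0.92 on probe set 1427797_s_at, from 5.81, 5.71 and 5.62 to 4.87, 4.72 and 4.77. Its brighter probe set 1418989_at had a larger difference, -1.12, but was not called (limma adjusted p = 0.201). That probe set read 11.11, 10.34 and 9.13 in wild-type against 9.60, 8.73 and 8.89 in knockout arrays, so its groups overlapped, and its highest array, wild-type replicate 1, was also the highest in erythroid markers.

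Rnf43, the gene of a ubiquitin ligase that removes Wnt receptors from the membrane, read 6.82, 6.78 and 6.82 in wild-type against 6.08, 6.14 and 6.29 in knockout arrays, a difference of -0.64 (SE 0.079). Snhg14, a long noncoding host transcript of small nucleolar RNAs, was called lower by 2 of 3 probe sets, with differences of -0.70 and -0.57. Its wild-type arrays read only 3.31 to 3.63 and 3.98 to 4.17 on them, below the lowest lower quartile of the naive arrays, 4.57. The third probe set read 2.72 to 2.88 over the 6 arrays, so signal above background was not shown by any of the 3 in either genotype.

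Rell1, which encodes a membrane protein related to the tumour necrosis factor receptor RELT, had the most certain rise. Probe set 1452359_at read 7.62, 7.46 and 7.43 in wild-type against 8.89, 8.77 and 8.90 in knockout arrays, a difference of 1.35 (SE 0.094, 2.55-fold, limma adjusted p = 7.23e-05). The other probe set, 1427243_at, rose by 1.15, from 7.65, 7.70 and 7.54 to 8.96, 8.69 and 8.70. Rell1 by 1452359_at and Rab4a by 1449048_s_at were the 2 probe sets called under all 20 settings that tested every probe set. Slc6a19, the gene of a neutral amino acid transporter best known from kidney and gut, rose by 1.00 (SE 0.10) on 1428595_at, from 5.25, 5.48 and 5.37 to 6.28, 6.53 and 6.30. On 1455442_at Slc6a19 had a difference of 0.61 and an adjusted p of 0.0713 in limma, with its arrays not overlapping either. Neurl3, a ubiquitin ligase gene of the neuralized family, rose by 0.65 (SE 0.081), from 8.11, 8.24 and 8.30 to 8.94, 8.82 and 8.82.

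The other 33 genes were called in the fit of all arrays but lost their call without at least 1 naive array. Of the 55 called probe sets, 39 remained called without knockout naive replicate 1, 20 without replicate 2 and 21 without replicate 3. Without wild-type naive replicates 1, 2 and 3 the numbers were 23, 20 and 55. All 55 kept their direction under each of the 20 settings. Their naive arrays did not overlap, so leaving out an array could not turn a direction. Settings that change only the variance estimate leave the difference itself as it was. In many of the settings the direction was therefore fixed in advance.

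Among these genes Mid1 had the largest called rise of the whole comparison. Mid1 encodes a microtubule-bound ubiquitin ligase, and in C57BL/6 mice the gene spans the boundary of the pseudoautosomal region of the X chromosome. Probe set 1438239_at read 6.08, 5.61 and 5.30 in wild-type against 7.13, 7.77 and 8.36 in knockout arrays, a difference of 2.09 (SE 0.33, 4.27-fold, limma adjusted p = 0.0295). Knockout arrays spread over more than 1 log2 unit (SD 0.61), and the call was lost without knockout naive replicates 2 or 3 or wild-type naive replicate 2 (limma adjusted p = 0.11, 0.121 and 0.135). The other 2 Mid1 probe sets had differences of 0.14 and 0.04 at levels of 3.83 to 5.08. Erdr1, 3 measured genes further and chosen after its values were seen, differed the same way by both of its probe sets: 1452406_x_at read 10.34, 10.92 and 10.51 against 11.45, 12.74 and 12.52, a difference of 1.65 that was not called (limma adjusted p = 0.0879).

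The remaining large rises were smaller and mostly near the lower part of the signal range. Herc2, the gene of a giant ubiquitin ligase, rose by 0.97 on 1444228_s_at, from 4.02, 4.02 and 4.53 to 5.05, 5.27 and 5.15, while its brightest probe set 1426491_at had a difference of -0.12 (limma adjusted p = 0.539). Klra8, which encodes the activating natural killer receptor Ly49H, rose by 0.94, from 5.08, 5.44 and 5.40 to 6.66, 6.15 and 5.95, with the highest value in knockout replicate 1. Dzip1, a zinc finger gene of cilium formation, rose by 0.75 on 1 of its 5 probe sets, and the other 4 lay between -0.18 and 0.06. App, the amyloid precursor protein gene and a reported cereblon-associated gene, rose by 0.64 on its brightest probe set, from 7.72, 7.49 and 7.22 to 8.09, 8.16 and 8.11. Of its other 3 probe sets, none called, 1 had the same sign and 2 the opposite. App was called in 12 of the 20 settings. It kept its call with the erythroid covariate (0.88, limma adjusted p = 0.023) and lost it with the B cell covariate (limma adjusted p = 0.134) and with the naive arrays alone (limma adjusted p = 0.222). The phosphoinositide phosphatase gene Synj2 rose by 0.61 on each of 2 called probe sets of 6. The Wnt ligand gene Wnt6 (0.70), Cped1 (0.67), the alanine aminotransferase gene Gpt2 (0.61), the zinc finger gene Zbtb3 (0.57), Abhd15 (0.56) and the sodium channel gene Scn10a (0.54) complete the 15 largest rises. Scn10a read 3.75 to 3.84 in wild-type and 4.19 to 4.46 in knockout arrays, below the quartile of 4.57, so signal above background was not shown for it either.

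Of the remaining large falls, those of Mtm1, Wee1, Parvb, Rgs18 and Slc45a3 had wild-type replicate 1 as their highest array. Mtm1, a phosphoinositide phosphatase gene, fell by 1.01 on 1454904_at, from 8.05, 7.66 and 7.50 to 7.13, 6.62 and 6.43. Its brighter probe set 1434278_at had the same difference, -1.0, without a call (limma adjusted p = 0.073), and 1416934_at had -0.01. Wee1, the kinase that holds back entry into mitosis by inhibiting CDK1, fell by 0.91, from 8.10, 7.83 and 7.60 to 7.17, 6.98 and 6.66. Parvb, which encodes the adhesion protein beta-parvin, fell by 1.09, from 6.24, 5.59 and 5.41 to 4.71, 4.57 and 4.71, and its other probe set had a difference of 0.15. Rgs18, a regulator of G protein signalling best known from platelets, fell by 1.01, and the transporter gene Slc45a3 by 1.00 and 0.49 on its 2 probe sets. Camk2b, a calmodulin-dependent kinase gene, fell by 0.65, from 6.98, 7.08 and 7.19 to 6.46, 6.49 and 6.36. With the erythroid covariate the differences of Mtm1, Wee1, Parvb, Rgs18 and Slc45a3 (1426663_s_at) were -0.55, -0.54, -0.69, -0.60 and -0.46, and limma called none of them (adjusted p between 0.491 and 1). For Camk2b the difference was -0.73 (limma adjusted p = 0.12).

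Agreement between probe sets of the same gene was then examined, since a probe set is a separate measurement of the transcript on the same array. Of the 45 called genes, 15 had 1 probe set and 30 had more, with 63 further probe sets. Of these 63, 46 (73.0%) had the sign of the called probe set, against 59.8% of all 30406 pairs of probe sets of 1 gene on the array. A call in the same direction was made for 10 of the 63 and a call in the opposite direction for 0; at an unadjusted p under 0.05 the numbers were 23 and 0. Probe sets of a gene can share sequence, and those marked _s_at or _x_at can also match other transcripts. Among the called probe sets 9 of 55 were of type _s_at and 5 of type _x_at, against 1831 and 2038 of the 34958 tested.

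All probe sets were called for 4 genes with more than 1, Crbn, Rab4a, Rell1 and Slc45a3. At the other end, the widest gaps to a probe set of the opposite sign were those of Nnt (-1.15 against 0.17), Parvb (-1.09 against 0.15), Herc2 (0.97 against -0.12), Dzip1 (0.75 against -0.18) and Snhg14 (-0.70 against 0.06). The called probe set of largest difference was the brightest of its gene in only 8 of the 30 genes. When each gene was represented by its brightest probe set alone, the differences of Herc2, Zbtb3 and Parvb were -0.12, -0.01 and 0.15, opposite in sign to the called ones.

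**Figure D2:**
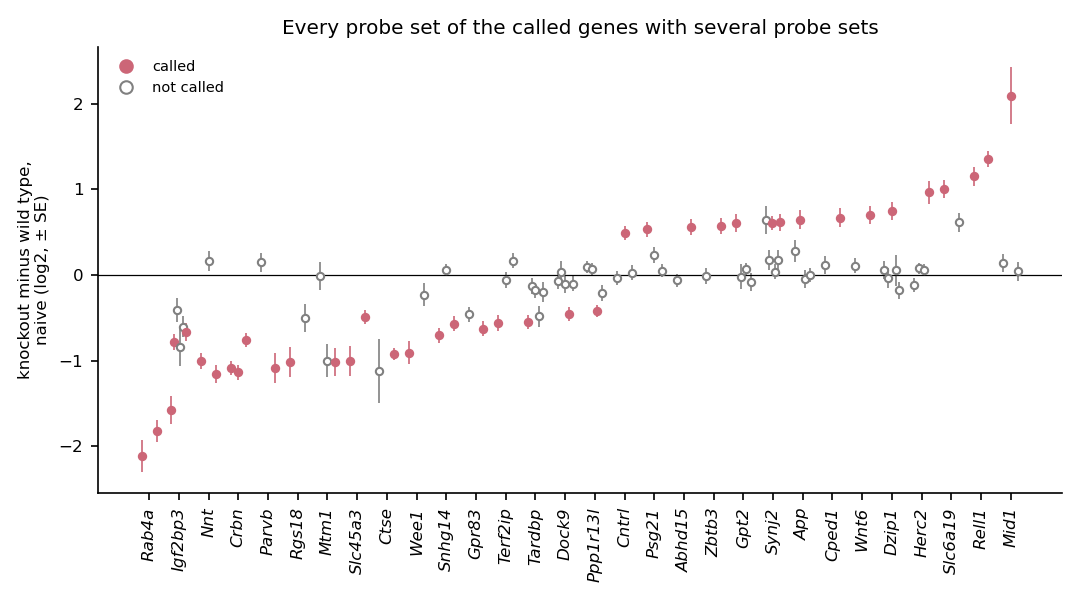
Difference between knockout and wild-type naive arrays (log2, vertical axis; bars are SE) for every probe set of the 30 called genes with several probe sets, ordered by the largest called difference. Filled points are called and open points are not. Open points scatter around 0 for genes such as Herc2 and Dzip1 and lie on the side of the call for Igf2bp3 and Slc6a19.

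The genes around Crbn were examined because a chromosomal segment that travels with a targeted allele can carry differences of its own. On chromosome 6, 0 of the 98 probe sets of the 25 measured genes on each side of Crbn were called, and 0 of the 394 probe sets of 100 genes on each side, beside 0.157% called over all probe sets. At an unadjusted p under 0.05 in limma the counts were 16 of 98 (16.3%) and 62 of 394 (15.7%), against 14.6% of all probe sets. The median differences were 0.01 in both windows. When wild-type naive replicate 3 was left out, 2 (2.04%) and 8 (2.03%) were called, beside 1.49% of all probe sets in that fit. With array quality weights the counts were 3 (3.06%) and 12 (3.05%), beside 2.01% of all.

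The closest approach to a call came from the gene next to Crbn. Trnt1, which encodes the enzyme that adds the CCA end to transfer RNAs, read 9.53, 9.41 and 9.30 in wild-type against 8.98, 9.06 and 8.86 in knockout arrays by 1425562_s_at, a difference of -0.44 (SE 0.086, limma adjusted p = 0.0768). Its other probe set, 1425561_at, had a difference of -0.17 (limma adjusted p = 0.286), with arrays that did not overlap either. Beyond Trnt1 the interleukin-5 receptor gene Il5ra had a difference of 0.06 and the cell adhesion gene Cntn4 of -0.03 and 0.11. On the other side stood Lrrn1, with differences of 0.05 to 0.18 over 3 probe sets, the methyltransferase gene Setmar at 0.01, and the sulfatase-modifying gene Sumf1 at -0.20 and 0.06. None of these neighbours passed the test, and the smallest adjusted p among the 394 probe sets was that of Trnt1.

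**Figure D3:**
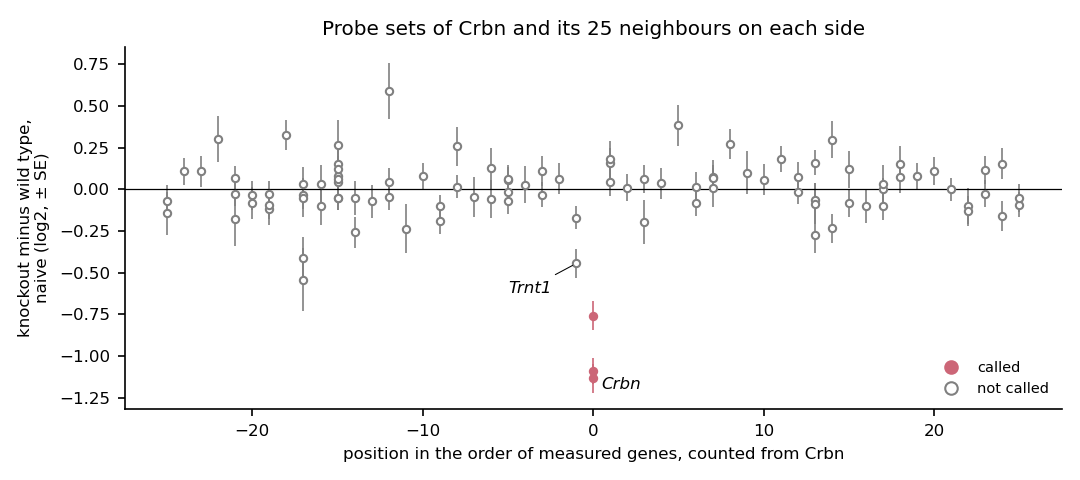
Difference between knockout and wild-type naive arrays (log2, vertical axis; bars are SE) for each probe set of Crbn and of the 25 measured genes on each side, placed by their order along the chromosome (horizontal axis, Crbn at 0). The 3 filled points of Crbn are the only called ones, and Trnt1 at -0.44 is the nearest neighbour.

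Elsewhere in the genome, called genes lay with at most 3 measured genes between them in 2 places. On chromosome 5 the gene 5830416I19Rik, adjacent to Rell1, rose by 0.44 (SE 0.067, limma adjusted p = 0.0268), from 4.34, 4.36 and 4.34 to 4.72, 4.81 and 4.81. The genes on the other side of Rell1 were not called. On chromosome 17 Synj2 rose while Tmem181a, with 2 measured genes between them, fell by 0.60 (SE 0.079), from 8.67, 8.88 and 8.80 to 8.21, 8.21 and 8.12. Neighbouring calls thus shared a direction in 1 of the 2 places. Slightly further apart, with 5 measured genes between them, lay Ctse and Slc45a3 on chromosome 1, both lower, and Herc2 and Snhg14 on chromosome 7, the former higher and the latter lower. As a share of measured genes, the calls per chromosome were highest on X (3 of 617, 0.486%), 17 (4 of 834, 0.48%) and 1 (5 of 1057, 0.473%). Chromosomes 10, 12 and 18 held 0.

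Near Nnt on chromosome 13, 4 measured genes away, Tmem267 came close to a call and was picked after its values were seen. It read 6.15, 5.76 and 6.02 in wild-type against 7.06, 7.30 and 7.16 in knockout arrays, a difference of 1.20 (SE 0.22, limma adjusted p = 0.0624), and in activated cells its difference was 1.76 (limma adjusted p = 0.0189). Paip1, which lies directly beside Nnt, had a difference of -0.60 by 1441955_s_at (limma adjusted p = 0.0822) and of -0.22 to 0.01 by its other 3 probe sets. Of the 27 probe sets of the 6 genes on each side of Nnt, 0 were called and 6 (22.2%) had an unadjusted p under 0.05, beside 14.6% of all. The same window held 8 of 25 such probe sets around Rell1 (32.0%), 8 of 31 around Ctse (25.8%), 7 of 29 around Herc2 (24.1%), 5 of 23 around Rab4a (21.7%), 4 of 18 around Mid1 (22.2%) and 4 of 24 around Synj2 (16.7%). All of these shares lay above the 14.6% of all probe sets. The centres are called genes picked with the results known. The windows of Rell1, Synj2, Herc2 and Ctse held 1, 1, 2 and 2 called probe sets of other genes. These windows therefore cannot show whether the share around Nnt is ordinary.

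Cells other than T cells were followed through marker lists, each gene by its brightest probe set. At this level 27 of 18194 genes (0.148%) were called, 14.0% had an unadjusted p under 0.05 and the median difference was 0.01. T cell markers were high and even: the mean of 9 measured genes, including the CD3 chains, was 11.78 to 11.95 in wild-type and 11.90 to 11.93 in knockout arrays, with differences of -0.03 to 0.15 and 0 calls. Neither CD4 (3 measured) nor CD8 (4 measured) markers held a call, with median differences of -0.02 and 0.10.

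**Figure D4:**
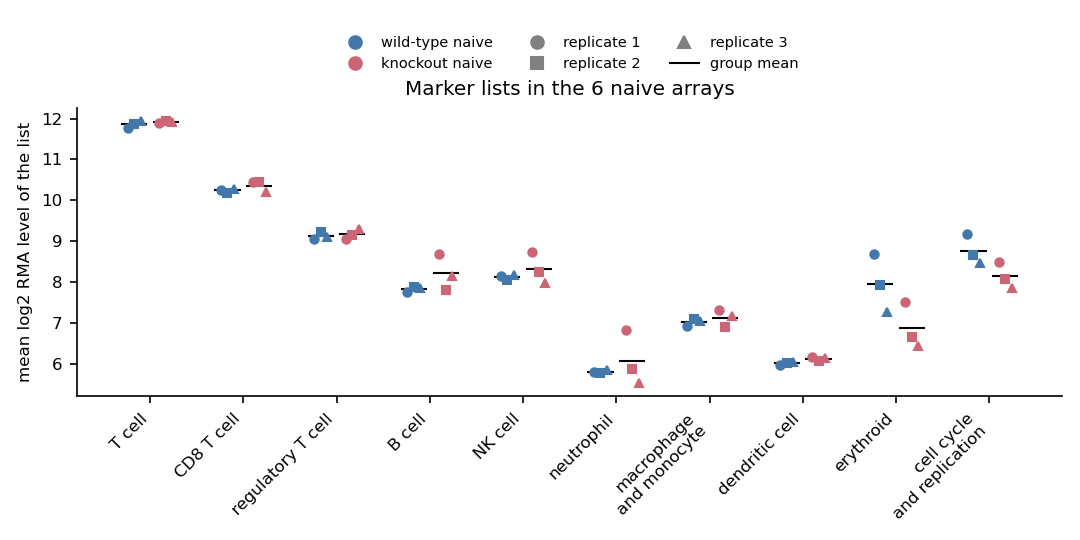
Mean log2 RMA level (vertical axis) of 10 gene lists in the 3 wild-type and 3 knockout naive arrays. Points are arrays, marker shape is the replicate number and lines are group means. The T cell list is flat, knockout replicate 1 stands out in the B cell, NK cell and neutrophil lists, and the erythroid and cell cycle lists are highest in wild-type replicate 1.

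Erythroid markers had the widest spread among wild-type arrays of the cell type lists (SD 0.71, n = 3). Of 14 measured genes 12 had a lower mean in knockout arrays, with a median difference of -1.21; 0 were called and 11 had an unadjusted p under 0.05 in limma. The summed linear level of the list ranged from 3753 to 12255 in wild-type and from 1947 to 4737 in knockout arrays. Rhag, a membrane protein of the Rh complex, read 9.15, 7.67 and 5.35 against 6.60, 4.28 and 3.75, a difference of -2.51 with an SE of 0.83 (limma adjusted p = 0.2). Klf1, the erythroid master transcription factor, read 10.17, 8.60 and 7.65 against 8.07, 6.59 and 6.38, a difference of -1.79 (SE 0.53). Gata1, the member of smallest p, read 8.64, 7.61 and 7.00 against 6.65, 6.35 and 6.17, a difference of -1.36 (limma adjusted p = 0.0965). The wild-type means of 7.26 to 8.68 spanned more than the step between the group means of 7.96 and 6.87. Of the 14 genes, 11 were highest in wild-type replicate 1 and 10 were lowest in knockout replicate 3. For this and the later lists, the share of all genes highest or lowest in a given array was not counted. The probe sets of the globin genes Hba-a1 and Hba-a2 that were measured here read only 4.29 to 5.94, with differences of 0.09 and 0.11.

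Genes of the cell cycle and DNA replication moved with the erythroid markers across the 6 arrays. All 31 measured members had a lower mean in knockout arrays, with a median difference of -0.62 and a range from -1.37 (Ccne2) to -0.06 (E2f1). None was called in limma, 27 had an unadjusted p under 0.05, and 13 had arrays that did not overlap, beside 14.0% and 20.4% of all genes. The wild-type arrays had list means of 9.17, 8.67 and 8.48, the knockout arrays of 8.50, 8.09 and 7.86. In both genotypes these fell with the replicate number, and each knockout array lay below the wild-type array of its number. All 31 members were highest in wild-type replicate 1 and 28 were lowest in knockout replicate 3. The proliferation marker Mki67 read 10.73, 10.36 and 9.87 against 9.97, 9.28 and 9.15, and Uhrf1, the member of smallest p, had a difference of -0.94 (limma adjusted p = 0.138). The wild-type replicate 3 mean of 8.48 and the knockout replicate 1 mean of 8.50 were level, as the erythroid means of these arrays were close (7.26 and 7.51). The part of residual erythroid cells in the cell cycle difference was not tested.

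B cell markers pointed the other way, mainly through a single array. All 17 measured genes had a higher mean in knockout arrays, with a median difference of 0.42, a summed level of 16563 to 17878 in wild-type and 18296 to 23930 in knockout arrays, and 0 calls. The mean was 7.75 to 7.88 in wild-type arrays, and 8.70, 7.81 and 8.15 in knockout replicates 1 to 3, and 16 of the 17 genes were highest in knockout replicate 1. Ms4a1, which encodes CD20, read 8.47, 8.95 and 8.83 against 10.21, 8.86 and 9.21 (limma adjusted p = 0.404). Without knockout naive replicate 1 the median difference was 0.16. That array was also the highest in 8 of 11 neutrophil genes, with S100a8 at 8.49 against 5.04 to 6.28 in the other 5 arrays, and in 8 of 11 NK cell genes.

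Klra8 was the only called gene of the NK cell list (1 of 11, median difference 0.20). Of the 11, 9 had a higher and 2 a lower mean in knockout arrays, with differences from -0.47 to 0.94. The list mean was 8.74, 8.24 and 7.98 in knockout replicates 1 to 3, and 8.06 to 8.18 in wild-type arrays. The NK cell list had a summed level of 7256 to 7950 in wild-type and 6894 to 10635 in knockout arrays. The receptor gene Ncr1 read 5.11 in all 3 wild-type arrays and 5.76, 5.56 and 5.34 in knockout arrays, without a call (limma adjusted p = 0.104), and Nkg7 and Prf1 differed by 0.06 and 0.10. Macrophage (19 measured), dendritic cell (9), plasma cell (6), platelet (8), mast cell (6) and endothelial or stromal genes (10) held 0 calls, with median differences between -0.08 and 0.22. The myeloperoxidase gene Mpo had a difference of -0.84 (limma adjusted p = 0.289), opposite in sign to S100a8 (1.07) and S100a9 (1.26) in the neutrophil list. The labelled sex was matched by the sex-linked genes: Xist read 11.94 to 12.12 in all 6 arrays, Eif2s3y stayed at 2.92 to 3.16, and 0 of 9 sex-linked genes were called.

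In the list of regulatory T cell genes 0 of 7 measured members were called by their brightest probe set, and Gpr83, an orphan receptor gene, was called by a dimmer one. Gpr83 fell by 0.63 on 1439569_at, from 8.03, 8.07 and 8.03 to 7.55, 7.32 and 7.38 (limma adjusted p = 0.0133), and its brighter probe set 1423415_at had a difference of -0.46 (limma adjusted p = 0.0713). Foxp3, the lineage factor of these cells, differed by 0.05, Il2ra by -0.10, Ctla4 by 0.08 and Ikzf2 by 0.09. Itgae had a difference of 0.50 without a call (limma adjusted p = 0.238).

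The cereblon ligase and its reported substrates were followed as a list of 25 genes, all measured. Crbn fell and App rose, App by 1 of its 4 probe sets, with 2 of the others of opposite sign. The other 23 genes were not called, and the median difference was -0.08. At an unadjusted p under 0.05 in limma there were 9 of the 25 (36.0%), beside 14.0% of all genes. Knockout replicate 3 held the lowest value of 13 of the 25. That array was lowest in erythroid and cell cycle markers alike, and the share of all genes lowest in it was not counted. The ligase partners Ddb1, Cul4a, Cul4b and Rbx1 differed by -0.22, -0.19, -0.20 and 0.19 (limma adjusted p between 0.255 and 0.34). Ikzf1 and Ikzf3, which encode Ikaros and Aiolos, read 12.08 to 12.25 and 10.003 to 10.19 over the 6 arrays and differed by 0.03 and 0.06. The kinase gene Csnk1a1 differed by -0.08, the translation termination gene Gspt1 by -0.20 and the glutamine synthetase gene Glul by -0.10. The lactate transporter gene Slc16a1, whose chaperone Bsg is a reported cereblon partner, had a difference of -0.42 (limma adjusted p = 0.184).

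Genes of potassium channels and calcium entry held 0 calls among 15 measured, with 0 at an unadjusted p under 0.05 in limma and a median difference of 0.04. Kcna3, the main voltage-gated potassium channel gene of T cells, read 6.46, 6.26 and 6.71 in wild-type against 6.46, 6.45 and 6.70 in knockout arrays, a difference of 0.06 (SE 0.13). The calcium-activated channel gene Kcnn4 differed by 0.04 (SE 0.068), and Orai1 and Stim1, the pore and sensor of store-operated calcium entry, by -0.07 and 0.05. AMP-activated kinase genes held 0 calls among 13, with Prkaa1 at -0.32 (limma adjusted p = 0.195). The smallest called difference anywhere was 0.40 log2, and shifts much smaller than this were not detectable with 3 arrays against 3.

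Lists of T cell state held no called gene in the resting cells. T cell receptor signalling genes (19 measured) had a median difference of 0.03, immediate early and activation genes (23) of 0.02, effector and memory genes (17) of 0.05 and type I interferon response genes (21) of 0.06, with 0 calls in each. All 20 measured genes of quiescence and the naive state had a slightly higher mean in knockout arrays, from 0.01 (Cdkn1b and Bach2) to 0.36 (Btg2, limma adjusted p = 0.171). Their median was 0.07, with 0 calls. Of the 20, 1 (5.00%) had an unadjusted p under 0.05 in limma and 6 (30.0%) had arrays that did not overlap, beside 14.0% and 20.4% of all genes. All 11 inhibitory receptor genes were higher by a median of 0.08, at most 0.28 (Cd200r1), with 0 calls and 1 (9.09%) at an unadjusted p under 0.05 in limma. Genes of MYC, polyamines and ribosome biogenesis (18) and of glycolysis and amino acid uptake (19) had medians of -0.11 and -0.10 and 0 calls, with 5 and 4 at an unadjusted p under 0.05 in limma. In the MYC, polyamine and ribosome list, 14 of 18 genes were highest in wild-type replicate 1, the array highest in erythroid and cell cycle markers alike. That array was also the highest in 16 of 21 type I interferon response genes, with a list mean of 9.27 against 8.67 to 9.03 in the other 5 arrays. Knockout replicate 1 was the highest in 12 of 17 effector and memory genes, with a list mean of 9.45 against 8.97 to 9.17.

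Heat shock and stress genes held 1 call among 15 measured. At an unadjusted p under 0.05 in limma there were 8 (53.3%), and 9 (60.0%) had arrays that did not overlap, beside 14.0% and 20.4% of all genes. Of the 15, 11 had a lower mean in knockout arrays. Wild-type replicate 1 was the highest in 9, and was also the highest array of the erythroid, cell cycle and interferon lists. Hspa1a, an inducible HSP70 chaperone gene, fell by 0.86 (SE 0.14, limma adjusted p = 0.0295), from 5.77, 6.05 and 5.48 in wild-type to 4.86, 4.95 and 4.91 in knockout arrays. Its near-identical neighbour Hspa1b had differences of -1.004, -1.14 and -0.94 by 3 probe sets, with arrays that did not overlap and limma adjusted p-values of 0.147, 0.0792 and 0.0879. The array probes of 2 such similar genes may read both transcripts, so the 2 genes are not separate measurements. Hspa1b 1452318_a_at read 8.53, 8.17 and 7.47 against 7.21, 7.12 and 7.01. Other chaperones were lower by less and not called, such as Hsph1 (-0.56, limma adjusted p = 0.124) and Dnajb1 (-0.24), while the stress genes Ddit3 (-0.05) and Atf4 (0.05) hardly differed. The call of Hspa1a was kept when wild-type naive replicate 3 was left out and lost when any other naive array was (limma adjusted p between 0.0564 and 0.124). With the erythroid covariate its difference was -0.75 (limma adjusted p = 0.74).

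The promoters of this pair are nearly alike: of 300 bases, 296 are equal at the same position. Most of these bases lie before the annotated start, and neither the transcripts nor the array probes were compared. The sequences cover the 300 bases around each annotated start, from RefSeq on GRCm38.p6, both on the minus strand, 5′ to 3′. Capitals mark the single match to GAANNTTC, the paired half-site of the heat shock element that heat shock factor binds, which reads the same on both strands.
Hspa1a, chr17:34972107-34972406: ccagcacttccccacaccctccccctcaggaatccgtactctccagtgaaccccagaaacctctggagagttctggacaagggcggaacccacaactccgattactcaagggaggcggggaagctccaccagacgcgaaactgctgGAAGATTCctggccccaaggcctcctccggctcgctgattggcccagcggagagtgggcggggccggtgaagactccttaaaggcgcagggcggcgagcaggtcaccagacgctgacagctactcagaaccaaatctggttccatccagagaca
Hspa1b, chr17:34959189-34959488: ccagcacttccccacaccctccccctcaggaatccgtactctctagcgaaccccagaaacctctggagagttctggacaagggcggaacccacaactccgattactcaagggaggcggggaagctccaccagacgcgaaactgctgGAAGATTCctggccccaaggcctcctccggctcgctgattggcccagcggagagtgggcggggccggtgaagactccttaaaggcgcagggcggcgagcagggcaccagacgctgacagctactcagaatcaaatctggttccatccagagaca
This motif occurs in 7.9% of the 32851 promoters of the table. Counted by gene, over any of its promoters, it occurs in 5 of the 13 heat shock and stress genes found there (38.5%) and in 9.0% of all 27025 genes.

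The activated arrays served as samples that the naive contrast had not used, although they share its variance estimate and may share animals. Of the 55 called probe sets, 34 (61.8%) had the same sign in activated cells, against 41.4% of all probe sets, and 7 of these, of 6 genes, passed the threshold there (0.0629% of all did). None passed in the opposite direction. Without the 3 probe sets of Crbn, 31 of 52 had the same sign and 5 passed. In 53 of the 55 the absolute difference was smaller in activated cells, with a median of 0.18 log2 against 0.67. The 55 were picked by their naive difference, so a smaller one in other arrays follows in part from that choice. This count therefore cannot show that the genotype difference is weaker in activated cells. The share of the same sign was 95.5% of the calls made without knockout naive replicate 3 and 38.8% of those made without wild-type naive replicate 3.

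The genes that kept their call whichever naive array was left out and the others gave different values here. Of the 18 probe sets of the former, 17 had the same sign in activated cells and 5 passed there, with a median absolute difference of 0.54. These 18 stand for only 12 genes and include all 3 probe sets of Crbn, the deleted gene. Of the 5 that passed, 2 were of Crbn. Of the other 37, 17 had the same sign and 2 passed, with a median of 0.14. This split was made after the naive values were seen, and the difference between the 2 sets was not tested. The 6 genes past the threshold in both states were Crbn (-0.91 and -0.90 in activated cells on 2 probe sets), Rab4a (-1.51), Nnt (-0.76), Rell1 (0.77), Gpr83 (-0.64) and Mid1 (2.59). Mid1 read 5.92 and 6.31 in the wild-type and 8.02, 8.75 and 9.34 in the knockout activated arrays. Its knockout arrays rose from replicate 1 to replicate 3 in both states. Erdr1 1452406_x_at read 11.45, 12.74 and 12.52 in the naive and 11.26, 12.59 and 12.37 in the activated knockout arrays, also in 1 order. The labels do not say whether arrays of the same number share animals. Neurl3 was at 0.65 in naive and -0.01 in activated cells, and Apol8 at -1.51 and -0.29. The difference between the states was tested as an interaction: 0 probe sets passed in limma (4983 at an unadjusted p under 0.05, smallest adjusted p 0.054), so a difference between states was not shown for any gene. Without wild-type naive replicate 3 the interaction called 8 probe sets.

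**Figure D5:**
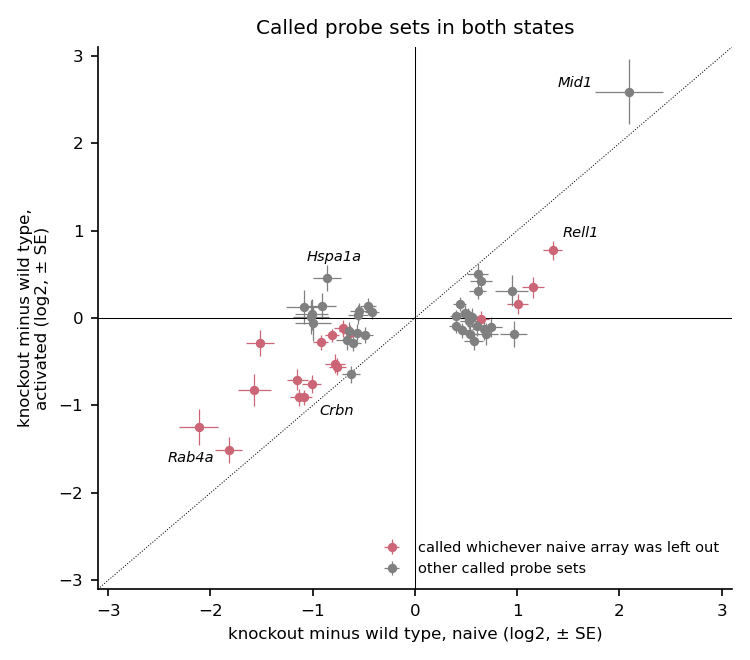
Difference between knockout and wild type in naive (horizontal axis) and activated arrays (vertical axis) for the 55 called probe sets (log2; bars are SE). Coloured points were called whichever naive array was left out, and the dotted line marks equal differences. Most points lie between the line and 0, with Mid1 (2.09 and 2.59) above the line and Hspa1a (-0.86 and 0.46) on the other side of 0. The probe sets were picked by their naive difference, which by itself favours smaller activated differences.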

How the data were processed

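Images were handled with GCOS and probe set values computed with RMA in Partek, per the submitters' processing notes, with no version given. The authors deposited log2 RMA values, between 2.32 and 15.0 with column medians of 5.84 to 5.89, and they were used as they stood. The number of arrays limits the precision. Quantile normalization inside RMA forces equal distributions on the arrays, so a shift of all genes in an array would not be seen.

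Probe sets were named from the platform's annotation: 34958 carried 1 gene symbol, 932 several and 9211 none. Entrez numbers of 34754 were found in a RefSeq gene table of GRCm38.p6, which changed 0 symbols and served for names and gene order; 18032 of 18194 genes had a chromosome. No coordinates of probe sets are given, since the array files name no build.

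The linear model was fitted in R 4.3.3 by limma 3.58.1 to all 11 arrays, using 4 group means, moderated variances (prior degrees of freedom 5.74, residual 7) and Benjamini-Hochberg adjustment over 34958 probe sets at 0.05. In gene lists each gene stands by its probe set of highest mean. The fit was tested on simulated data. Plots came from matplotlib 3.10.9 with pandas 2.3.3 under Python 3.11.15. Replicate numbers were checked as pairs: knockout and wild-type naive deviations of the same number correlated at 0.35, 0 and 0.26, so the numbers were not taken as pairs.

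The comparison, the gene lists and the genes followed were chosen with earlier results of these data known. Named were Crbn; the 15 largest rises and 15 largest falls among called genes without overlap; of each list up to 4 called members or the 1 of smallest p; the 3 measured genes on each side of Crbn; called genes with at most 3 measured genes between them; and 5 genes with a probe set of opposite sign. Where a gene outside these was picked for its values, the text says so. The remaining list members are named for their known role. The alternatives were other probe set choices, a filter on low values, other variance models, the naive arrays alone, array weights, 2 further normalizations, 3 uses of the replicate number, marker means as covariates and leaving out arrays.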

Additional observations from a re-analysis of the deposited data

Results flagged for a closer look

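For 9 called probe sets every knockout array lay on one side of the wild-type arrays in naive cells and on the other side in activated cells, which is 16.4% of the 55, beside 2.88% of all probe sets and 14.5% of those whose naive arrays do not overlap, as is true of all 55. In naive cells the difference was 0.67 for Cped1, -0.46 for Dock9, 0.46 for Dpep3, 0.61 for Gpt2, -0.86 for Hspa1a, -0.55 for Tardbp, -0.91 for Wee1, 0.70 for Wnt6 and 0.57 for Zbtb3. In activated cells, in the same order, it was -0.13, 0.14, -0.14, -0.09, 0.46, 0.08, 0.13, -0.18 and -0.26 log2. The difference between the states was tested as an interaction and passed for none of the 9 (limma adjusted p between 0.127 and 0.182). The interaction was largest for Hspa1a, 1.32 with an SE of 0.20. Dock9, Dpep3 and Tardbp were named here after their values were seen. All 9 belong to the genes that lost their naive call without at least 1 naive array.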

How the results depend on the processing

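The 55 calls became 27 with the brightest probe set of each gene, 23 with the mean of a gene's probe sets, 25 above the median level, 12 without moderation, 14 with the naive arrays alone, 702 with array quality weights, 13 with the erythroid covariate, 27 with the B cell covariate, 5 with both covariates (added after seeing the data) and 21 to 521 without single arrays. With the replicate block they were 344 on all arrays and 532 on the naive arrays alone; 4 of 6 naive arrays correlated best with their own number, a hint from the data and not from the design. The cause of these shifts was not tested. Called neighbours of Crbn within 25 genes were 1 with a variance trend, 3 with weights and 1 in each fit with the replicate block, and 0 to 2 without single arrays; within 100 genes they were 1, 12, 1 and 4, and 0 to 8. The share with the same sign in activated arrays was 40.6% with weights, 30.5% with the replicate block, 100% with the erythroid covariate or both covariates, and 38.8% to 95.5% without single arrays. The interaction called 1 probe set with a variance trend, 1 with weights, 49 with the replicate block and 0 to 8 without single arrays. Crbn had -1.03 (limma adjusted p = 0.131) with both covariates and was called in all other settings. The erythroid median was -0.044 with its own covariate and 0.028 with both, and the B cell median 0.067, -0.003 and, without replicate 1 of either genotype, 0.077. Herc2 was at -0.12 (brightest probe set, and above the median level), Zbtb3 at -0.011 and Parvb at 0.15 (brightest). Of 655 other results for named genes 420 stayed on their side of the threshold, 231 lost their call and 4 reversed.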
